A study of Drosophila melanogaster with 12 samples.

Results

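The control escort cells (ECs) of an RNAi experiment were compared with the ECs of an ageing series, which are the same cell type from the Drosophila ovary sorted from other flies. The comparison used 6 of the 12 RNA-seq libraries of the series, taken by their labels: 2 libraries of control ECs, 2 of 1w-old ECs and 2 of 4w-old ECs. Per the study's methods, the control females carried the reporter 13× LexAop-mCD8::GFP over w, ptc-LexA over tub-Gal80ts, and ptc-Gal4 over a wild-type chromosome. They were grown at 18 °C and spent 2 weeks at 29 °C from eclosion. The ageing females carried a y w chromosome with lexAop-mCD8::GFP over w, and ptc-LexA over a wild-type chromosome. They were aged 1 or 4 weeks, at a temperature that is not given for these libraries in the sources used here. Both sets thus carried ptc-LexA driving membrane GFP in cells that express patched, and GFP-positive live cells were sorted from pooled ovaries. The control set also carried tub-Gal80ts and ptc-Gal4, with no RNAi transgene. Genotype, temperature, age and experiment therefore differ together and cannot be told apart, so every difference below is one between 2 sets of libraries. The study calls the libraries of a group biological replicates, and its ageing females of both ages were split from a common batch within each replicate. No batch shared by control and ageing females is given in the sources used here.

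ECs are somatic cells of the germarium that wrap germline cysts with long processes and send them signals for differentiation. They receive Hedgehog through the receptor Patched, secrete Wnt4 and express the transcription factor Traffic jam. When flies are shifted to warmth, Gal80ts loses its hold on Gal4, and heat itself induces chaperones of the Hsp70 and small heat shock protein families. Other ovarian tissues near a sorted EC are the follicle epithelium, which makes yolk proteins and vitelline membrane, the germline, and the muscle sheath around each ovariole.

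The reads counted on genes ranged from 14292744 to 15988320 in the control libraries and from 12078227 to 16888122 in the ageing series. Levels are given in cRPKM, which scales reads to the mappable length of a transcript and to the reads of the library. The 2 control libraries agreed closely: the Pearson correlation across 11329 genes (log2 CPM, counts scaled to library size) was 0.98, and 0.56% of the genes at 10 cRPKM or more differed at least 2-fold in cRPKM + 1. The ageing libraries were more scattered. Their replicates correlated at 0.86 (1w) and 0.88 (4w), and 11.8% and 10.3% of such genes differed at least 2-fold. A control library correlated with an ageing library at 0.88 to 0.92, and 9.29 to 14.9% of such genes differed at least 2-fold between them. Smu1, the gene targeted in the RNAi arm, stood at 26.4 and 23.6 cRPKM in the controls, at 7.85 to 22.6 in the ageing ECs and at 4.17 and 5.51 in the Smu1 RNAi ECs, which were kept like the controls and are quoted below for reference only.

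A small group of genes separated the 2 sets, beside a larger one that was stable across them. Of 11329 genes tested, 140 (1.24%) were higher and 155 (1.37%) lower in control ECs than in the mean of both ages, 2.6% together. A gene was called where edgeR's quasi-likelihood test gave an adjusted p under 0.1 and the fold change was 2-fold or more. The 2 control libraries lay wholly above or below the 4 ageing libraries for 290 of these 295 genes, and for 24.8% of all genes tested. A gene was termed stable where the 95% intervals of 2 differences, control over the mean of the ages and 4w over 1w, both lay inside 2-fold and its mean was at least 10 cRPKM. That held for 1816 genes, 16% of those tested and 31.7% of the 5736 at that level. A further 3679 genes at that level were neither called nor stable. The counts of calls rested on both control libraries: without the first control library 39 genes were higher and 63 lower, and without the second 54 and 41. Stable genes then numbered 699 and 666.

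**Figure D1:**
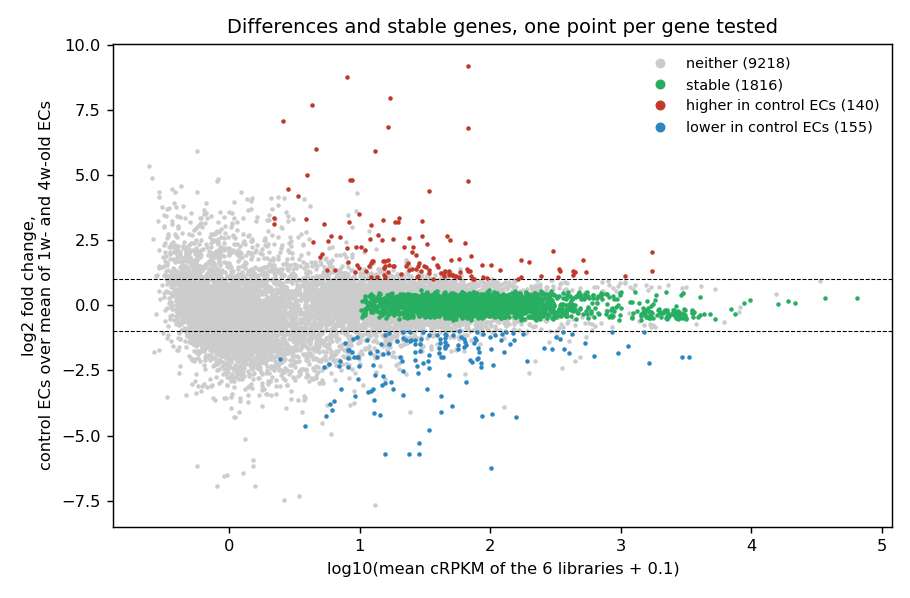
Each point is a gene tested; the x axis is log10 of its mean cRPKM over the 6 libraries plus 0.1 and the y axis its log2 fold change, control ECs over the mean of 1w- and 4w-old ECs. The 140 higher (red) and 155 lower (blue) genes lie beyond the dashed 2-fold lines, and the 1816 stable genes (green) form a band inside them.

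The cells of both sets carried the escort cell markers, and 1 of the 7 markers was called, beside 2.6% of all genes. Wnt4, a secreted Wnt ligand, stood at 748 and 697 cRPKM in the controls, at 354 and 235 in 1w-old and at 371 and 257 in 4w-old ECs. All control values were above all ageing values, a log2 fold change of 1.27 ± 0.20 (SE) with an adjusted p of 0.0158. The Smu1 RNAi ECs, at 725 and 717, sat with the controls.

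ptc and tj leaned the same way without being called. The Hedgehog receptor ptc, whose enhancer drives the sorting reporter, was at 100 and 93.2 cRPKM in the controls and at 42.4 to 74.1 in the ageing ECs (log2 difference 0.76, 95% interval 0.29 to 1.23, adjusted p 0.12). The Maf factor gene tj was at 885 and 874 against 473 to 711 (0.72, interval 0.30 to 1.14, adjusted p 0.103). For both, as for Wnt4, the groups did not overlap, which held for 24.8% of all genes tested. The differences of ptc and tj were under 2-fold.

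None of the other 4 markers was called. fax, named for failed axon connections, was stable, at 689 and 677 cRPKM against 452 to 782. GstS1, a glutathione S-transferase, was at 1096 and 1206 in the controls, at 1365 and 1438 at 1w and at 3252 and 2662 at 4w. Its log2 difference from the mean of the ages was -0.82 (adjusted p 0.0607), under 2-fold. The difference from 4w was -1.40 (adjusted p 0.0191) and that from 1w -0.24 (adjusted p 0.648). The 4w over 1w difference was not called (1.16, interval 0.70 to 1.61, adjusted p 0.193), though the study lists GstS1 as changed with age in ECs. The BTB factor gene bab1 (7.69 and 8.77 against 4.99 to 9.52) and the scavenger receptor gene santa-maria (6.86 and 6.40 against 0.53 to 10.1) had overlapping groups and low levels (log2 differences 0.24 and 0.78). Summed over the 7 markers, the controls, at 3533 and 3563 cRPKM, lay within the ageing range of 2650 to 4956. That overlap came from GstS1, the 1 marker whose difference was below 0, while 6 were above 0. Without GstS1, both control sums lie above all 4 ageing sums.

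**Figure D2:**
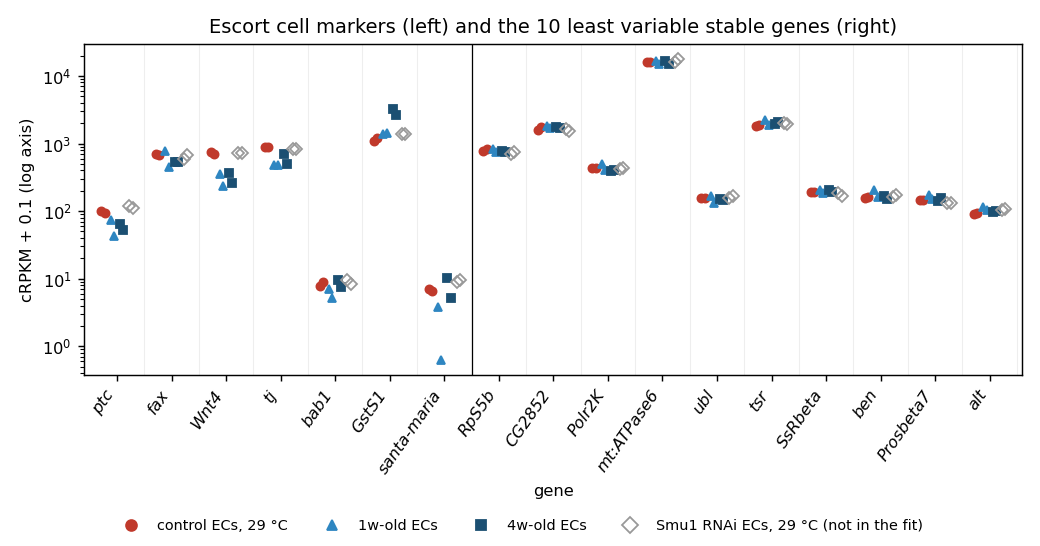
Level of each escort cell marker (left) and of the 10 stable genes with the smallest spread (right), cRPKM plus 0.1 on a log axis, with 1 point per library and 4 groups. Wnt4, ptc and tj are higher in both control libraries than in the 4 ageing libraries, GstS1 is highest in the 4w-old ECs, and the stable genes run level across groups.

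The most even abundant transcripts of the 6 libraries were mainly genes of basic cell functions. Among stable genes at 100 cRPKM or more, of which there were 643 of 1014 tested, the smallest SD of log2 CPM belonged to RpS5b, a paralogue of a small ribosomal subunit protein, at 769 and 833 in the controls and 738 to 839 in the ageing ECs (SD 0.046). The next was CG2852, which encodes a cyclophilin-type prolyl isomerase, at 1606 and 1746 against 1682 to 1801. Then came Polr2K, an RNA polymerase subunit gene, at 432 and 430 against 389 to 503, and the mitochondrial mt:ATPase6 at 16251 and 16313 against 14926 to 16886. The actin-severing cofilin gene tsr (1822 and 1860 against 1859 to 2237) was as even. The other 5 were ubl (a ubiquitin-like protein), SsRbeta (a translocon-associated protein), the ubiquitin-conjugating enzyme gene ben, the proteasome gene Prosbeta7 and alt, with log2 differences between -0.15 and 0.07.

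In 4 of 5 gene families of protein synthesis, breakdown, respiration and proton transport, most genes at 10 cRPKM or more were stable, beside 31.7% of all genes at that level. The share of stable genes was greater at higher levels, 643 of 1014 at 100 cRPKM or more. The families were not compared with other genes of like level. Of cytosolic ribosomal protein genes, 72 of the 81 at 10 cRPKM or more were stable and none of 83 tested was called. Their log2 differences were nevertheless nearly all of 1 sign, with 81 of 83 below 0 and a median of -0.34, beside a median of -0.012 over all genes. Of proteasome genes, 29 of 32 were stable (median of 41 tested 0.09), and of respiratory chain genes 44 of 61 (median of 72 tested 0.40, 63 above 0). V-ATPase genes were stable for 9 of 12. Mitochondrial ribosomal protein genes were the exception, with 28 of 71 stable (median 0.26), nearer to the share over all genes. None of the genes tested in these 5 families was called.

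Single genes of signalling pathways were stable. For these short lists, a count of 0 called is what a background of 2.6% gives and carries no weight, and 31.7% of all genes at 10 cRPKM or more were stable. hh, the Hedgehog ligand gene, is listed here as a marker of terminal filament and cap cells. It was at 88.5 and 86.6 cRPKM in the controls and at 83.0 to 118 in the ageing ECs (log2 difference -0.10, interval -0.51 to 0.30). The pathway's transcription factor gene ci was at 192 and 168 against 148 to 181. Of the 10 Hedgehog pathway genes tested none was called and 3 of the 6 at 10 cRPKM or more were stable, the third being the inhibitor gene Su(fu). In EGFR signalling none of 12 was called and 4 of 11 were stable, near the background: the ligand gene spi, the inhibitor genes sty and kek1, and Ras85D. The germ cell contacts of ECs use gap and adherens junctions, and there the innexin genes Inx2 (114 and 118 against 103 to 155) and Inx3 and the E-cadherin gene shg (45 and 44 against 33 to 44) were stable. So were the integrin genes mys and Ilk, the ecdysone receptor genes EcR and usp, and the cell cycle genes CycA, Cdk1 and geminin. At 10 cRPKM or more, 2 of 4 gap junction, 1 of 4 adherens junction and 3 of 7 integrin genes were stable. The gap junction differences ran from -2.77 to 0.38. Against 1w-old ECs alone, 1 gap junction gene was lower and 1 adherens junction gene higher (1.62% and 1.42% of all genes). Of cell cycle and DNA replication genes 7 of 21 were stable and none of 25 was called, and of ecdysone response genes 4 of 6 were stable and none of 10 called. Of 12 somatic piRNA pathway genes, 2 were stable and none was called, with 10 differences above 0 (median 0.53). The piRNA genes piwi and armi were called higher against 1w-old ECs alone.

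The genes that rose most in control ECs were nearly absent from the ageing series. CG12522 was at 194 and 211 cRPKM in the controls (1273 and 1239 reads) and at 0.60, 0.16, 0 and 0.58 in the 4 ageing libraries (3, 1, 0 and 4 reads), a log2 fold change of 9.21 ± 0.61 with an adjusted p of 0.000255. It was higher still in the Smu1 RNAi ECs, at 642 and 709. Its neighbour CG32073 had 65 and 55 reads in the controls and at most 1 in any ageing library. The 2 genes lie 652 bases apart on the BDGP6 assembly, at chr3L:11107008-11107582 and chr3L:11108235-11108732.

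Other strong rises also came from genes that lie near each other. Genes between them were not looked for. CG42329 (47.7 and 48.4 cRPKM against 0.08 to 0.68, log2 fold change 6.88 ± 0.51, adjusted p 0.000365) and CG5397 (22.4 and 23.3 against 0 to 3.08) lie 10233 bases apart on chromosome arm 2L. sordd2 (28.8 and 18.5 against 0 to 0.18) and the pseudogene CR44383 (29.3 and 46.0 against 0 to 1.45) lie 10 bases apart on the X, on opposite strands. Since strand use in counting is not stated, reads of these 2 could be shared.

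The remaining rises of the 10 largest were CG18853 on 2R (39.7 and 61.4 cRPKM from 26 and 36 reads, and 0 reads in all 4 ageing libraries), CG40006 (14.1 and 11.5 against 0.02 to 1.34), Hsp70Ba and Cyp4g1. Every ageing library was at 3 reads or fewer for 4 of the 10. Taking 3 reads per library as the limit, sordd2 was at least 39.0-fold higher in control ECs, CG32073 at least 19.9-fold and CG18853 at least 10.3-fold, for counting error only. Cyp4g1, a cytochrome P450 of cuticular hydrocarbon synthesis in oenocytes, rose by a log2 fold change of 4.81 ± 0.71 (adjusted p 0.0112), but its control values of 43.0 and 5.11 were far apart, against 0.57 to 1.41, and the call was lost without the first control library or the second 4w-old library and with limma-voom weights. CG32073 and CR44383 lost theirs without the second 4w-old library (adjusted p 0.101 and 0.118), and CG18853 without any 1 of 3 ageing libraries and with the replicate block (adjusted p 0.133).

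**Figure D3:**
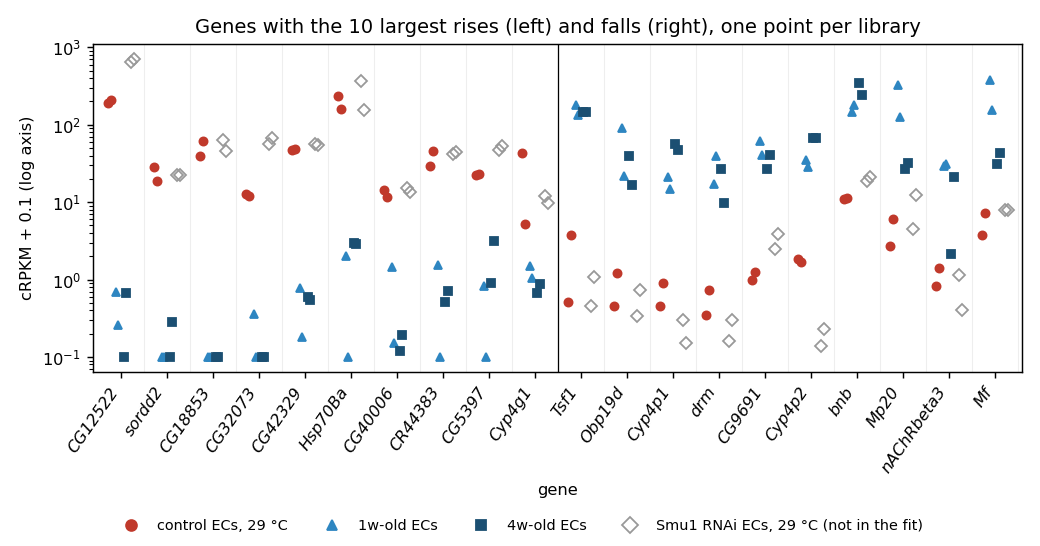
Level of the genes with the 10 largest rises (left) and the 10 largest falls (right) in control ECs, cRPKM plus 0.1 on a log axis, with 1 point per library; points at 0.1 are libraries with no read. Genes were drawn only from called genes without overlap, so the 2 control libraries (red) are apart from the 4 ageing libraries (blue) by selection. The Smu1 RNAi libraries (open grey), which were not in the fit, are drawn beside them.

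The largest fall was that of Tsf1, which encodes transferrin, the iron carrier of the hemolymph. It was at 0.41 and 3.63 cRPKM in the controls, at 179 and 134 in 1w-old and at 145 and 146 in 4w-old ECs, a log2 fold change of -6.26 ± 0.69 (adjusted p 0.00334). The ageing values were even and both control values far below them.

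A tandem pair of cytochrome P450 genes on 2R fell together. Cyp4p1 was at 0.36 and 0.80 cRPKM in the controls, at 20.9 and 14.7 at 1w and at 56.6 and 47.8 at 4w (log2 fold change -5.71 ± 0.47). Cyp4p2, 209 bases away, was at 1.74 and 1.58, at 35.1 and 28.6, and at 67.7 and 67.9 (-4.79 ± 0.31, adjusted p 0.000255). In the Smu1 RNAi ECs both were lower again, at 0.20 and 0.05 for Cyp4p1 and at 0.04 and 0.13 for Cyp4p2.

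The other large falls were of mixed kinds. bnb was at 10.8 and 11.3 cRPKM against 145 to 351 (log2 fold change -4.30 ± 0.29), the odorant-binding protein gene Obp19d at 0.36 and 1.13 against 16.7 to 92.0, the zinc finger gene drm at 0.25 and 0.64 against 9.58 to 39.0, and CG9691 at 0.90 and 1.15 against 26.8 to 61.6. nAChRbeta3 (-4.19) shares all its exon bases with an overlapping gene, so its reads cannot be assigned to it, and its call was lost without the first control library or either 1w-old library. Mp20 and Mf, the last of the 10, are muscle genes and are described below with their list.

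Of 23 heat shock protein and chaperone genes, 1 was higher and 2 were lower in the flies kept at 29 °C, beside 1.24% higher and 1.37% lower over all genes. Of the 22 at 10 cRPKM or more, 10 were stable, beside 31.7% of all genes. The median log2 difference was -0.19 (0.010 without the second 1w-old library). The small heat shock protein genes were abundant in every library: Hsp26 was at 3080 and 2627 cRPKM in the controls and at 2655 to 3619 in the ageing ECs, and Hsp27 at 1483 and 1279 against 1582 to 1680. With Hsp22 and Hsp23, all 4 of these were stable. Their common regulator gene Hsf (56.1 and 47.0 against 55.2 to 68.2) and the endoplasmic reticulum chaperone gene Hsc70-3 (277 and 239 against 207 to 251) were stable too. Hsp83, at 1170 and 898 against 1259 to 2085, had a log2 difference of -0.76 (adjusted p 0.245).

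The Hsp70 genes, whose copies are nearly identical, went opposite ways. Hsp70Ba was at 239 and 161 cRPKM in the controls (164 and 99 reads) and at 0 to 2.83 in the ageing ECs, at least 43.4-fold higher (fitted adjusted p 0.0166). Hsp70Bc, 41299 bases away in the same cluster, was at 115.35 and 97.0 against 246 to 442, a log2 fold change of -1.62 ± 0.33 (adjusted p 0.0451), and lost its call without either control library. Hsp70Aa, of the other cluster, was at 447 and 470 against 271 to 509 (adjusted p 0.933). How the reads of 1 copy were divided among the copies was not stated, so these 3 values are uncertain as readings of single genes. The co-chaperone gene stv fell slightly, at 249 and 168 against 389 to 475 (-1.04 ± 0.23, adjusted p 0.0641), and lost that call without any 1 of 4 libraries.

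**Figure D4:**
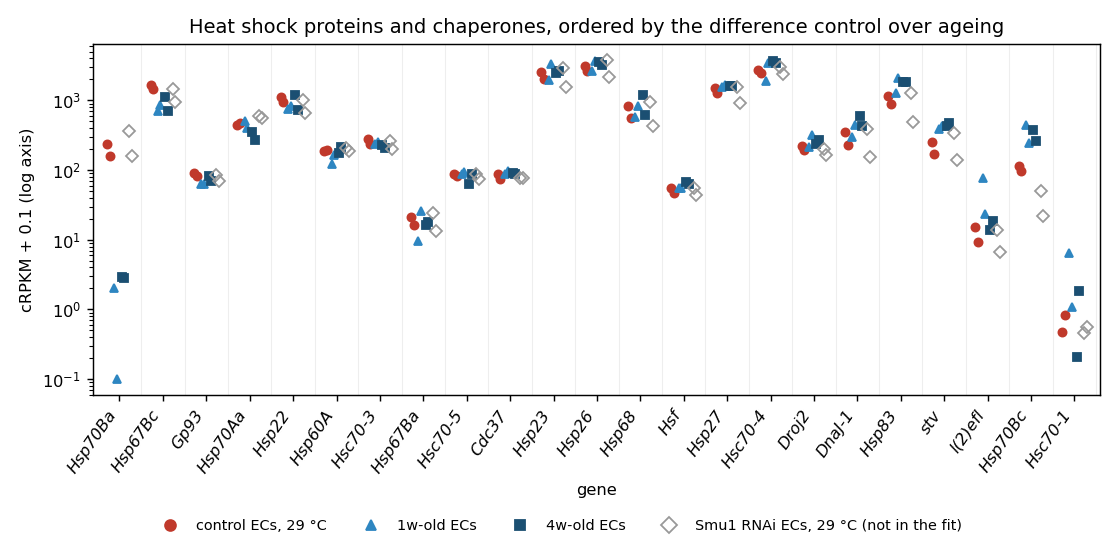
Level of 23 heat shock protein and chaperone genes, ordered from the largest to the smallest log2 difference of control over ageing ECs, cRPKM plus 0.1 on a log axis, 1 point per library. Hsp70Ba alone is high in the controls and near 0 in the ageing ECs, while Hsp23, Hsp26 and Hsp27 overlap or nearly overlap between groups.

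Markers of late follicle cells were lower in control ECs. Of 17 tested, 8 were lower and none higher (1.37% of all genes were lower), with a median log2 difference of -1.49 beside -0.012 over all genes. Yp2, which encodes a yolk protein, was at 384 and 564 cRPKM in the controls, at 2418 and 2635 at 1w and at 2080 and 1757 at 4w (log2 fold change -2.22 ± 0.22, adjusted p 0.00292). The vitelline membrane gene Vm34Ca was at 1299 and 873 against 3623 to 5813 (-2.0 ± 0.24), and Vm26Aa at 1084 and 863 against 3417 to 4567 (-1.99 ± 0.20). Yp3 was at 171 and 256 against 641 to 983 (-1.94 ± 0.25). The other called members were Yp1, Vm26Ab, psd and Vml, the last 2 of which lost their calls without any 1 of 4 libraries. Of Yp1's exon bases, 54.3% lie in another gene as well. None of the 7 chorion genes was called, and their groups overlapped: Cp15 was at 1003 and 236 in the controls and at 217 to 1829 in the ageing ECs (-0.31, adjusted p 0.88). Summed over the 17 markers, the controls held 3936 and 5127 cRPKM and the ageing ECs 12052 to 19600. The Smu1 RNAi ECs, kept like the controls, held 8771 and 12098, above both controls and into the ageing range, though Yp2 was at 791 and 207 there. In bulk samples, fewer cells of a type and less RNA per cell cannot be told apart. In a fit over all 12 libraries, which adds terminal filament and cap cells and Smu1 RNAi ECs, none of the 17 was called, with a median of -1.5.

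Some muscle genes were lower too. Of 18 tested, 5 were lower (1.37% of all genes), with a median of -2.05. Mp20, a calponin-like muscle protein gene, was at 2.64 and 5.90 cRPKM in the controls, at 328 and 124 at 1w and at 26.4 and 31.5 at 4w (-4.23 ± 0.48, adjusted p 0.00371). The myofilin gene Mf was at 3.68 and 7.23, at 378 and 156, and at 30.8 and 42.9 (-4.17 ± 0.45). The troponin gene up, the tropomyosin gene Tm2 and the myosin light chain gene Mlc2 were the others, Tm2 with an adjusted p of 0.0906 that was lost in 6 of 11 alternatives. Against 1w-old ECs 13 were lower (1.62% of all genes), and against 4w-old ECs 2 were lower (0.856%) and 1, Zasp66, higher, with medians of -3.35 and -0.74. Fits on only the 4 libraries compared gave 12 and 1 lower and none higher. The summed level was 86.1 and 106 in the controls, 1443 and 504 at 1w, and 148 and 165 at 4w, so that the first 1w-old library stood apart. It was 124 and 188 in the Smu1 RNAi ECs. Without it, 4 of 18 were lower, without the second 1w-old library 9, and without either control library 2.

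The other cell type lists had few or no calls. None of 11 germline genes was called, although 10 of 11 differences were below 0 (median -0.85), and their sum was 74.3 and 90.5 cRPKM in the controls, 98.0 to 177 in the ageing ECs and 84.5 and 61.7 in the Smu1 RNAi ECs. The sums of hemocyte markers (96.6 and 97.7 against 87.5 to 131), fat body markers (2.07 and 3.65 against 3.04 to 11.4) and neuron markers (23.9 and 26 against 21.2 to 57.4) overlapped, with none called. Of the hemocyte markers, Hml, NimC1 and eater were at 1.73 cRPKM or less in every library, so other members of the list made up most of its sum. LamC, a lamin gene of terminal filament and cap cells, was lower, at 10.2 and 9.57 against 21.1 to 40.8 (-1.77 ± 0.33, adjusted p 0.0305), and so was the early follicle cell adhesion gene Fas3, at 25.3 and 25.5 against 53.0 to 88.9 (-1.51 ± 0.29, adjusted p 0.0362). The Smu1 RNAi ECs were at 28.2 and 12.9 for LamC and at 47.6 and 35.5 for Fas3. LamC lost its call without either control library and Fas3 without the second. Fas3 was the only called gene of 5 early follicle cell markers, beside 1.37% of all genes lower. Their median was -0.24, with 2 differences above 0 and 3 below. Their sums overlapped, at 398 and 387 in the controls against 272 to 400 in the ageing ECs. Of the list that holds LamC, en and inv were at 3.69 or less everywhere. Its remaining member, hh, was stable as given above and made up most of the list's sum in every library. The part of other cells in the differences described here was not tested.

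**Figure D5:**
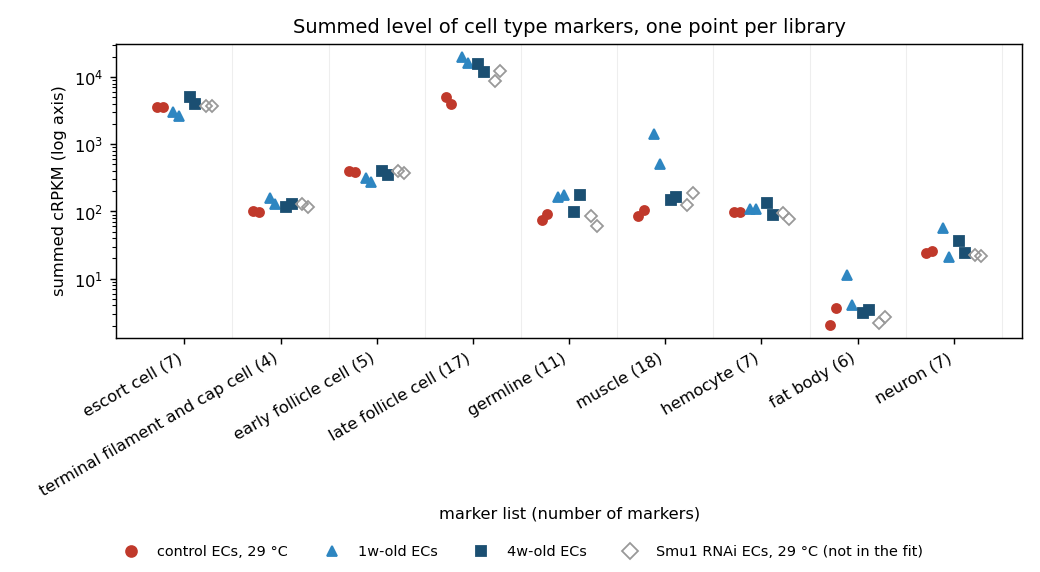
Summed cRPKM of 9 lists of cell type markers on a log axis, 1 point per library; the number of markers is in parentheses. The late follicle cell, germline, muscle, and terminal filament and cap cell sums are lower in both controls (red) than in every ageing library (blue). The terminal filament and cap cell sum is mostly hh, which was stable. The escort cell sums overlap through GstS1.

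The few genes of immunity and oxidative defence that were called were lower in the controls, beside 1.37% of all genes. Rel, the NF-kappaB factor of the Imd pathway, was at 24.3 and 18.3 cRPKM in the controls, at 96.4 and 125.3 at 1w and at 64.8 and 103 at 4w (-2.17 ± 0.30, adjusted p 0.00738). It was the only called gene of 23 in Toll and Imd recognition and signalling, whose median was -0.012, and the inhibitor gene cact and the adaptor genes Myd88 and tub were stable. Of 7 antimicrobial peptide genes tested, Dro (drosocin) was called, at 3.47 and 2.29 against 11.1 to 121 (-4.09 ± 0.78, adjusted p 0.0362). All 7 differences were below 0, but the ageing libraries varied widely, as in CecA1 from 1.10 to 56.2, and Dro lost its call without either control library. None of the 3 Turandot genes tested was called.

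In oxidative defence, Gclc, the catalytic subunit of the enzyme that begins glutathione synthesis, was at 25.0 and 24.3 cRPKM against 70.9 to 156 (-2.22 ± 0.38, adjusted p 0.0222). cnc, the Nrf2-type regulator of such genes, sat at the 2-fold limit, at 46.9 and 46.7 against 74.9 to 129 (-1.0 ± 0.24), and lost its call in 8 of 11 alternatives. Of 12 genes tested these 2 were lower and none higher, beside 1.37% and 1.24% of all genes, while Sod1, Sod2, Cat and Prx2 were stable. Among enzymes of detoxification, 3 of 76 cytochrome P450 genes were higher and 2 lower (1.24% and 1.37% of all genes), with Cyp49a1 at 13.4 and 13.3 against 1.03 to 2.65 (2.65 ± 0.49, adjusted p 0.0311). GstD9 (119 and 97.0 against 18.1 to 44.5) and Ugt36D1 (94.0 and 93.7 against 16.4 to 42.5) were higher, and GstO3 (20.2 and 12 against 35.1 to 70.1) lower. Cyp49a1 and GstD9 lost their calls without either control library, Ugt36D1 without either 1w-old library, and GstO3 without any 1 of 5 libraries.

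Of 15 genes tested of the basement membrane and its remodelling, 1 was higher and 1 lower, beside 1.24% and 1.37% of all genes. SPARC, a collagen-binding matrix glycoprotein, was at 2832 and 2870 cRPKM in the controls, at 1158 and 1004 at 1w and at 1359 and 1138 at 4w (1.31 ± 0.16, adjusted p 0.0043). Mmp1, a secreted matrix metalloproteinase, was at 9.25 and 10.3, at 105 and 85.5, and at 30.2 and 51.1 (-2.66 ± 0.27, adjusted p 0.00292). The collagen IV gene Col4a1 (135 and 130 against 90 to 102) and the laminin gene LanB2 were stable. They were 2 of the 8 at 10 cRPKM or more, beside 31.7% of all genes at that level. The integrin alpha subunit gene if rose, at 15.3 and 14.1 against 4.24 to 8.20 (1.28 ± 0.29, adjusted p 0.0694), a call lost in 4 alternatives.

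Single members differed in the remaining lists. tim, a core gene of the circadian clock, was at 212 and 189 cRPKM in the controls, at 61.5 and 69.2 at 1w and at 110 and 75.8 at 4w (1.37 ± 0.21, adjusted p 0.0132). Of its partners, Clk and cyc had log2 differences of 1.48 and 1.14 without a call (adjusted p 0.104 and 0.24), per had -0.49 and Pdp1 was stable. The hour of dissection is not given. ImpL2, which encodes a secreted binder of insulin-like peptides, was lower, at 20.5 and 29.4 against 57.8 to 180 (-2.03 ± 0.35, adjusted p 0.0213), and 61.9% of its exon bases also belong to another annotated gene. The glypican gene dally (8.31 and 10.3 against 21.3 to 29.5, -1.38 ± 0.27, adjusted p 0.042) was lower and lost its call without either control library. Socs36E, a target and inhibitor of JAK-STAT signalling, was at the 2-fold limit (-1.0 ± 0.23, adjusted p 0.066) and lost its call in 6 alternatives. None was called among gap junction, adherens junction or antiviral genes.

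Marker genes of the fly stocks and the escort cell genes that the study names did not pass the test. The eye colour gene w was at 446 and 438 cRPKM in the controls and at 253 to 449 in the ageing ECs. The body colour gene y was at 16.0 and 14.7 against 4.2 to 8.43 (1.12 ± 0.40, adjusted p 0.257), without overlap. v was at 0.68 or less in all 6 libraries and at 33.0 and 40.8 in the Smu1 RNAi ECs. alphaTub84B, whose promoter drives Gal80ts in the controls, was stable at 2291 and 2138 against 1558 to 1840. CG17321 was at 5.62 and 6.07 against 0.32 to 3.08 (2.64 ± 0.69, adjusted p 0.104), SPE at 6.38 and 7.32 against 0.16 to 3.43, and CG6067 at 28.4 and 24.5 against 7.28 to 27.3.

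Read against each age alone in the same fit, which shares the control libraries, 161 genes (1.42%) were higher and 184 (1.62%) lower than in 1w-old ECs, and 63 (0.556%) and 97 (0.856%) than in 4w-old ECs. Against both ages 39 genes were higher and 70 lower. Wnt4, SPARC, CG12522, CG42329 and Cyp4g1 were higher, and Tsf1, bnb, Cyp4p1, Cyp4p2, Yp1, Yp2, Yp3, Rel, Gclc and Mmp1 lower, against each age. tim was called against 1w-old ECs and not against 4w-old ECs. The 4w over 1w difference of the same fit was called for none of the 16 genes just named, which does not show equal levels. Its 95% interval lay above 0 for Cyp4p1 (0.79 to 2.51) and Cyp4p2 (0.57 to 1.80), among others. For Mmp1 it lay below 0 (-1.75 to -0.53). The study, in its own test, lists Cyp4p2 and Mmp1 among the genes that changed with age in ECs.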

How the data were processed

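The authors sorted GFP-positive ovarian cells, amplified the cDNA (26 PCR cycles, Pico Profiling) and sequenced strand-specific libraries (125 nt). Reads were processed for dm6 in vast-tools. The authors deposited unnormalized read counts per gene and cRPKM (corrected RPKM), which divides reads by mappable length and mapped reads. Of 14489 genes listed 13726 had values, and 13506 matched a gene name. Counts of the 6 libraries were fitted as 3 groups in edgeR 4.0.16 (R 4.3.3; TMM, quasi-likelihood) for genes reaching 10 counts in 2 or more libraries. The p-values were adjusted (Benjamini-Hochberg) over all genes tested. SE is the absolute log2 fold change over the square root of F. Values with ± are SE, and n is 2 control and 4 ageing libraries. A count of 3 reads was taken as the limit that 0 allows. PCR reads are not independent molecules, so bounds cover counting error only. Alternatives used DESeq2 1.42.0, limma 3.58.1, other scalings, filters, groupings and left-out libraries.

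The genes named were, of called genes without overlap whose higher set averaged 10 cRPKM or more, the 10 largest rises and falls, all escort cell markers, 4 or fewer called members of each list with examples of uncalled ones, and the 10 most even stable genes, all among genes with a matched name; 13 called genes had none. Further called members of the late follicle cell and muscle lists, piwi, armi and the genes of the other observations were named after their values were seen. Lists and the comparison were chosen with earlier results of these data known. List members without a match were not analysed here. Coordinates and shared exon bases (either strand) are from the BDGP6 annotation.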

Additional observations from a re-analysis of the deposited data

How the results depend on the processing

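Of 140 higher and 155 lower genes, none was called in the opposite direction by any alternative. DESeq2's Wald test called 225 and 404, limma-voom with separate weights for control and ageing libraries (added after seeing the data) 378 and 423, and an adjusted p under 0.05 left 86 and 94. A mean of at least 5 cRPKM gave 246 lower genes, and a fit against 4w-old ECs alone 65 and 94. Leaving out 1 library gave 39 to 251 higher, 41 to 234 lower and 666 to 1778 stable genes; where 1 library of a group was left, that library was assumed to vary like the others. Intervals inside 1.5-fold left 92 stable genes. The cause of these moves was not tested, apart from the stricter thresholds. The voom weights were 3.61 for control and 0.527 for ageing libraries, and its median over all genes was 0.114 against -0.012. Replicate numbers do not pair the control with the ageing libraries (correlation of deviations -0.274 with 1w and 0.0473 with 4w, and -0.0342 between the ages); with the replicate block 161 genes were higher, 174 lower and 1669 stable, 1611 of them shared. Of 46 genes with a call named by the rule, 26 kept it in every alternative that tested them; of 20 further called genes chosen after their values were seen, 11 did. None of these changed sign.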

Other observations

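The genes here were chosen after their values were seen, so their number carries no weight and no statement is made about a group. Among genes of immediate-early and injury responses, the Fos gene kay was lower in control ECs, at 31.4 and 28.6 cRPKM in the controls, at 123 and 140 at 1w and at 77.9 and 91.5 at 4w (log2 fold change -1.81 ± 0.22, adjusted p 0.0043). Its partner, the Jun gene Jra, was at 67.2 and 50.3 against 115.2 to 151 (-1.15 ± 0.22, adjusted p 0.0363). Pvf2, which encodes a ligand of the PDGF and VEGF receptor family, was at 5.54 and 3.78 against 24.1 to 64.9 (-3.21 ± 0.34, adjusted p 0.003), the signalling adaptor gene Traf4 at 24.3 and 18.7 against 81.2 to 113 (-2.09 ± 0.24), and the growth regulator gene Myc at 43.9 and 50.4 against 112 to 189 (-1.81 ± 0.24). Xrp1 (-1.43 ± 0.24), Gadd45 (-1.23 ± 0.24) and Ets21C (-3.31 ± 0.80) were called lower as well. Jra, Xrp1, Gadd45 and Ets21C lost their calls without the second control library. Gadd45 also lost its call without the second 4w-old library, and Ets21C in 4 other alternatives. Traf4, Ets21C and Myc share 26.8%, 28.3% and 61.2% of their exon bases with other genes on either strand. The gene nAChRbeta3, named above among the largest falls, lies within the span of Ets21C, so reads of this pair could be shared. The others examined were not called: the JNK phosphatase gene puc was at 156 and 118 against 148 to 241 (-0.56, adjusted p 0.303), Irbp18 at 72.7 and 66.7 against 85.4 to 154 (-0.67, adjusted p 0.384), the cytokine gene upd3 at 0.49 and 0.61 against 0.90 to 8.35 (-2.23, adjusted p 0.359, without overlap at low levels), and Ilp8 at 41.7 and 26.7 against 22.9 to 68.3 (-0.34, adjusted p 0.871).

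Among genes of cell guidance and surface signalling, the netrin gene NetA was higher, at 69.7 and 65.0 cRPKM against 1.52 to 15.9 (2.68 ± 0.58, adjusted p 0.0581), and lost its call without either 4w-old library. Its neighbour NetB, at 4.80 and 4.36 against 1.19 to 3.57, was not called (adjusted p 0.424). miple1, which encodes a secreted midkine-type factor, was at 82.3 and 66.6 against 7.05 to 9.10 (3.24 ± 0.26, adjusted p 0.000654), the receptor tyrosine kinase gene Ret at 20.2 and 26 against 0.31 to 5.20 (3.50 ± 0.42), and the glial surface protein gene wrapper at 112 and 94.6 against 9.40 to 37.4 (2.66 ± 0.33). The acetylcholinesterase gene Ace was at 21.5 and 17.6 against 0.87 to 4.76 (3.22 ± 0.37). The PTK7-type receptor gene otk was at 112 and 113 against 34.6 to 56.9 and otk2 at 79.6 and 82.8 against 27.1 to 45.4, the second losing its call without any 1 of 4 libraries. In the Smu1 RNAi ECs, miple1 stood at 76.8 and 78.0 and otk at 107 and 113.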
